A study of Mus musculus with 24 samples.

Results

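The growth factor and cytokine receptors of blood progenitors, represented by 10 genes, were followed across all groups of a mouse RNA-seq study. They are Kit, Flt3, Csf3r, Csf2rb, Csf2rb2, Csf2ra, Il3ra, Il6st, Il1rap and Ifngr1. They were found by gene symbol, 10 of 55487 gene IDs in the count table, and each was among the 23059 genes with enough reads to test. The study asked how the leukaemia fusion gene MLL::ENL (here ME) acts in progenitors of different ages, and measured 24 libraries in 6 groups of 4. The cells are labelled LSK (lineage-negative, Sca-1-positive, KIT-positive), while the series' design text names a lineage-negative KIT-positive sort. Liver cells were taken at postnatal day 0 (P0), either wild type (P0 WT) or carrying ME induced from embryonic day E10.5 (P0 ME). Marrow cells were taken at day 28 (P28) and were wild type (P28 WT), or had ME switched on at E10.5 (E10.5-induced ME) or at birth (P0-induced ME). The last group, also P28 marrow with ME from E10.5, carries the label RLT Vav Txp, which is not expanded, and a pair of its libraries share the number that opens their titles. ME is a human fusion expressed from a Tet-off transgene in the mouse model. The promoter that drives it, pooling of animals and sex are not given in the sources used here. The wild-type groups serve as controls for more than 1 comparison, and age cannot be told apart from tissue, liver at P0 and marrow at P28.

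Blood stem and progenitor cells read growth factors through a few families of surface receptors. KIT and FLT3 are receptor tyrosine kinases for stem cell factor and FLT3 ligand. The receptors for G-CSF, GM-CSF, IL-3 and the IL-6 family have no kinase of their own and signal through JAK kinases and STAT factors. GM-CSF, IL-3 and IL-5 each have a private alpha chain and share a beta chain. Gp130 is shared by the IL-6 family in the same way. IL1RAP is the co-receptor for IL-1 and IL-33, and IFNGR1 is the ligand-binding chain of the interferon gamma receptor. SOCS proteins, phosphatases and CBL ubiquitin ligases limit these signals.

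Mice, unlike humans, have an additional beta chain gene: Csf2rb codes for the beta chain shared by GM-CSF, IL-3 and IL-5, and Csf2rb2 for one that works only with the IL-3 alpha chain. On GRCm38 the pair lies head to head on chromosome 15, Csf2rb2 on the minus strand at chr15:78282507-78305721 and Csf2rb on the plus strand at chr15:78325752-78353847. Their longest coding sequences in GENCODE M21, of 2691 and 2637 bases for Csf2rb and Csf2rb2, were identical at 95.2% of 2631 aligned bases. Of the 50-base stretches in each coding sequence, 26.3% in Csf2rb and 26.5% in Csf2rb2 also occurred in the other gene. The start of both coding sequences, bases 1 to 90, shows how alike the pair is, with the 3 differing bases in capitals.
Csf2rb: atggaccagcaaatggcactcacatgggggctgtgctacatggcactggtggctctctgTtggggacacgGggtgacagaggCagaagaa
Csf2rb2: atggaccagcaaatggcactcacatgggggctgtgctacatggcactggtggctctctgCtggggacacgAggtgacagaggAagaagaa
How the authors' counting treated reads that match both genes is not given in the sources used here. The split of counts between the 2 genes is therefore uncertain, and all values below for either one carry that limit.

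The other members lie apart from each other on GRCm38: Kit at chr5:75574916-75656722, Flt3 at chr5:147330741-147400489, Csf3r at chr4:126024550-126044440, Csf2ra at chr19:61223957-61228429 and Il3ra at chr14:14346275-14356011. Il6st is at chr13:112464070-112510086, Il1rap at chr16:26581704-26730117 and Ifngr1 at chr10:19591949-19610229. Exons of Il1rap share 552 bases with the antisense gene Gm20319, and exons of Il3ra share 46 bases with the antisense gene Gm48860. The strand setting of the counting is not given in the sources used here, so reads from these overlaps cannot be told apart.

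Libraries held 31233688 to 89774511 counts. Values in CPM are counts relative to the library's total, after TMM scaling, a correction for library composition. Several libraries stood apart. On the leading principal component, which held 43.1% of the variance, P0 WT library 4 lay farthest out, and it had the lowest Kit level of all 24. At P0 the libraries numbered 1 of both groups differed from the other 6: summed neutrophil granule markers were 901 CPM in WT library 1 and 841 CPM in ME library 1, against 11489 to 38299.6 CPM in the others. Macrophage and erythroid marker sums were likewise low in these 2 libraries. At P28 the summed neutrophil granule markers were 673 to 1110.2 CPM in P0-induced ME and 2187 to 7090.1 CPM in the RLT Vav Txp group. None of 10 LSK markers was at 0 in any group. That was also true of the neutrophil granule, megakaryocyte and erythroid markers, so it does not identify the cells. The LSK markers summed to 2288 to 4518 CPM in P0 WT and 2307 to 5050 CPM in P0 ME. Their sum was 4379 to 4955 CPM in P28 WT and 2120.1 to 3152 CPM in the RLT Vav Txp group. Kit and Flt3 are among these markers. Without them the sums of the other 8 were 2626 to 2968 CPM in P28 WT and 1411 to 1844 CPM in RLT Vav Txp. In these bulk samples, fewer cells of a type and less RNA per cell cannot be told apart. The design text calls the 4 libraries of a group biological replicates. The test estimates 1 spread per gene over all 24 libraries, so widely spread P0 libraries also raise the errors of P28 comparisons.

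Per kb of exon, the scale on which different genes can be compared, levels of the 10 genes spanned a wide range. Over the 6 group means, Flt3 averaged 142.5 CPM per kb, Ifngr1 averaged 108 and Kit averaged 96.2. Csf3r, the G-CSF receptor gene, averaged 31.0 CPM per kb and Csf2ra, the GM-CSF alpha chain gene, averaged 16.8. Csf2rb at 10.0, Il3ra at 5.00 and Csf2rb2 at 4.24 CPM per kb followed, and Il6st at 3.84 and Il1rap at 1.94 were lowest. Flt3 varied most between groups, 6.06-fold from the lowest to the highest group mean, and Il1rap varied least, 1.38-fold.

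**Figure D1:**
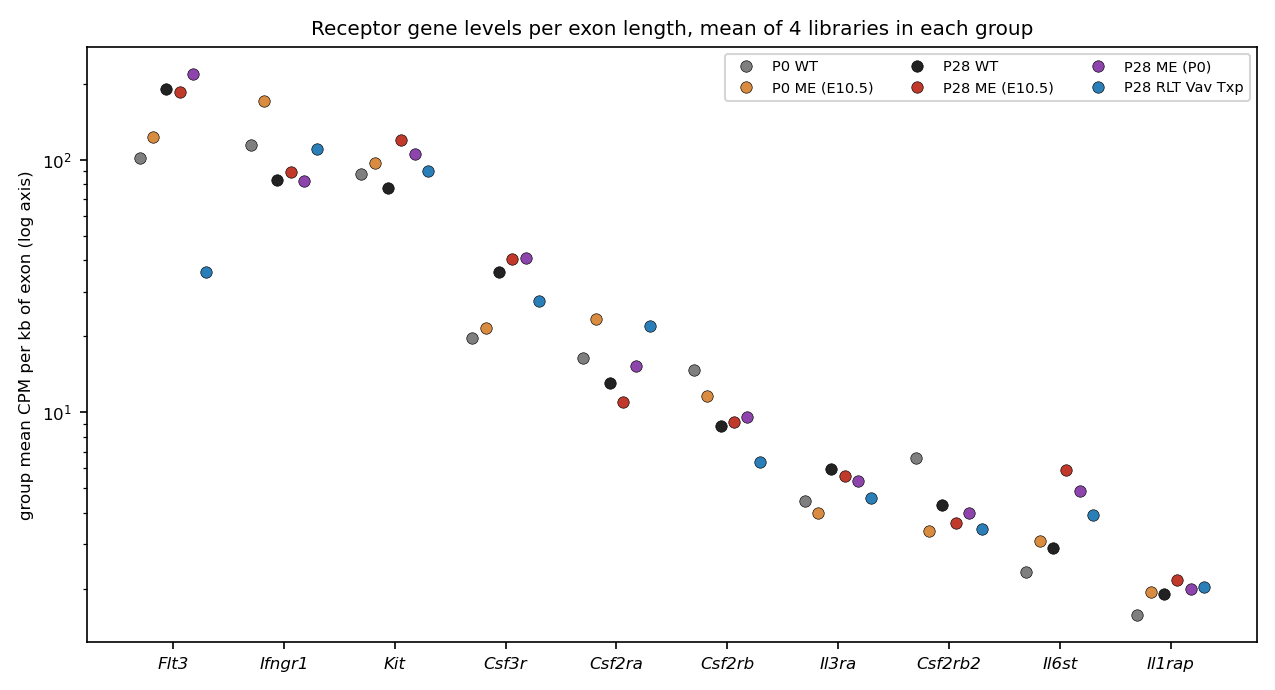
Group mean level of each receptor gene in CPM per kb of exon, on a log axis, with 1 point for each of the 6 groups of 4 libraries. Flt3, Ifngr1 and Kit lie highest in most groups, and Flt3 in the RLT Vav Txp group falls to 36.0 CPM per kb, near the level of Csf3r.

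The spread among replicates set how small a difference could be seen. The coefficient of variation over 4 libraries had a median over the 10 genes of 34.1% in P0 WT and 35.3% in P0 ME. The P28 medians were 18.7% for WT, 20.1% for RLT Vav Txp, 13.3% for E10.5-induced ME and 10.47% for P0-induced ME. When the 6 groups were ranked by mean level for each gene, only 10 of the 50 gaps between neighbours were larger than the larger of the 2 SDs. Libraries of neighbouring groups were fully apart in 1 of the 50, Flt3 in P0 WT above the RLT Vav Txp group.

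**Figure D2:**
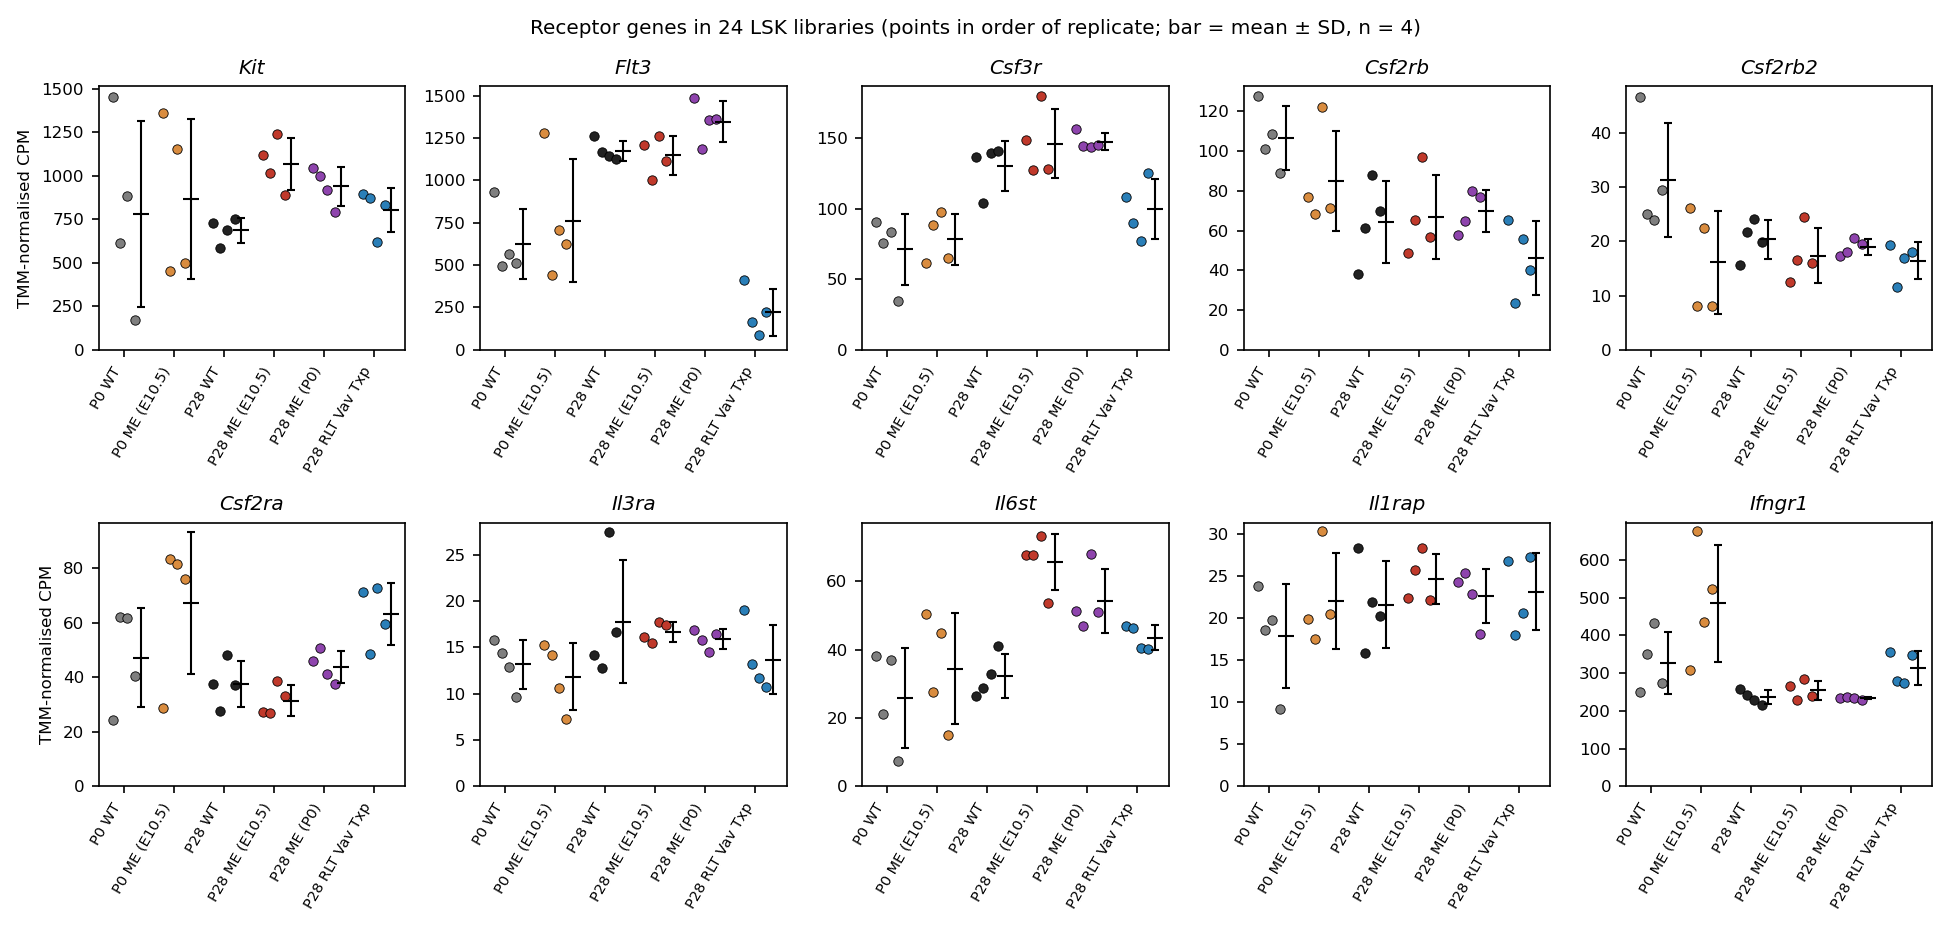
TMM-normalised CPM of the 10 receptor genes in each library, in 1 panel per gene with its own linear axis from 0, grouped by age, genotype and time of ME induction. Points are libraries in order of replicate number, and bars show mean ± SD (n = 4). Flt3 is low in all 4 RLT Vav Txp libraries, and the P0 groups are spread more widely than the P28 groups for Kit, Il6st and Ifngr1.

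Few receptor genes differed between groups beyond that spread. A gene was called when its adjusted p over all 23059 genes was under 0.05 in the edgeR quasi-likelihood test. For ME against WT, 0 of 10 were called at P0, where 0.642% of all genes tested were called, and 2 had an unadjusted p under 0.05. At P28, 0 of 10 were called in E10.5-induced ME against WT, beside 12.3% of all genes, with 1 at an unadjusted p under 0.05. For P0-induced ME against WT, 0 of 10 were called, beside 1.57% of all genes, also with 1 at an unadjusted p under 0.05. The difference of the ME effect between P28 and P0 gave 0 calls of 10, beside 0.72% of all genes. P0-induced against E10.5-induced ME gave 0 of 10, beside 0.0477%. Each of these had 0 at an unadjusted p under 0.05. Across these comparisons in the order given, 3251, 6163, 4648, 3815 and 998 of all 23059 genes had an unadjusted p under 0.05. DESeq2 and limma voom, run on the same 24 libraries, each called 0 of 10 for ME at P0 and for the difference between ages. For E10.5-induced ME against WT each called 1, Il6st, and limma voom alone called 1 for P0-induced ME against WT, also Il6st, and 1 for P0-induced against E10.5-induced ME, Csf2ra. The 7 receptor calls given next were each also made with RLE scaling, with plain library totals, with DESeq2, with limma voom and with no filter on low counts. Genome-wide counts depended on the scaling. For E10.5-induced ME against WT edgeR called 1804 genes higher and 1023 lower with TMM scaling, 1338 and 1223 with RLE scaling, and 750 and 1501 with plain library totals, while the median over all genes tested moved from -0.10 to -0.23. Fold changes are to be read against that shift.

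Calls came from the RLT Vav Txp group and from age. RLT Vav Txp against P28 WT had 1 of 10 called, the lower Flt3, beside 4.12% of all genes called. RLT Vav Txp against E10.5-induced ME had 2 of 10 called, Flt3 lower and Csf2ra higher, beside 17.9% of all genes. P28 against P0 had 1 of 10 called in WT, the higher Csf3r, beside 7.68% of all genes. In E10.5-induced ME it had 3 of 10, Csf3r higher and Csf2ra and Ifngr1 lower, beside 18.2% of all genes. With 10 genes, counts of 1 to 3 are not read as a property of the receptor genes as a group. The age and RLT Vav Txp comparisons share groups with each other.

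**Figure D3:**
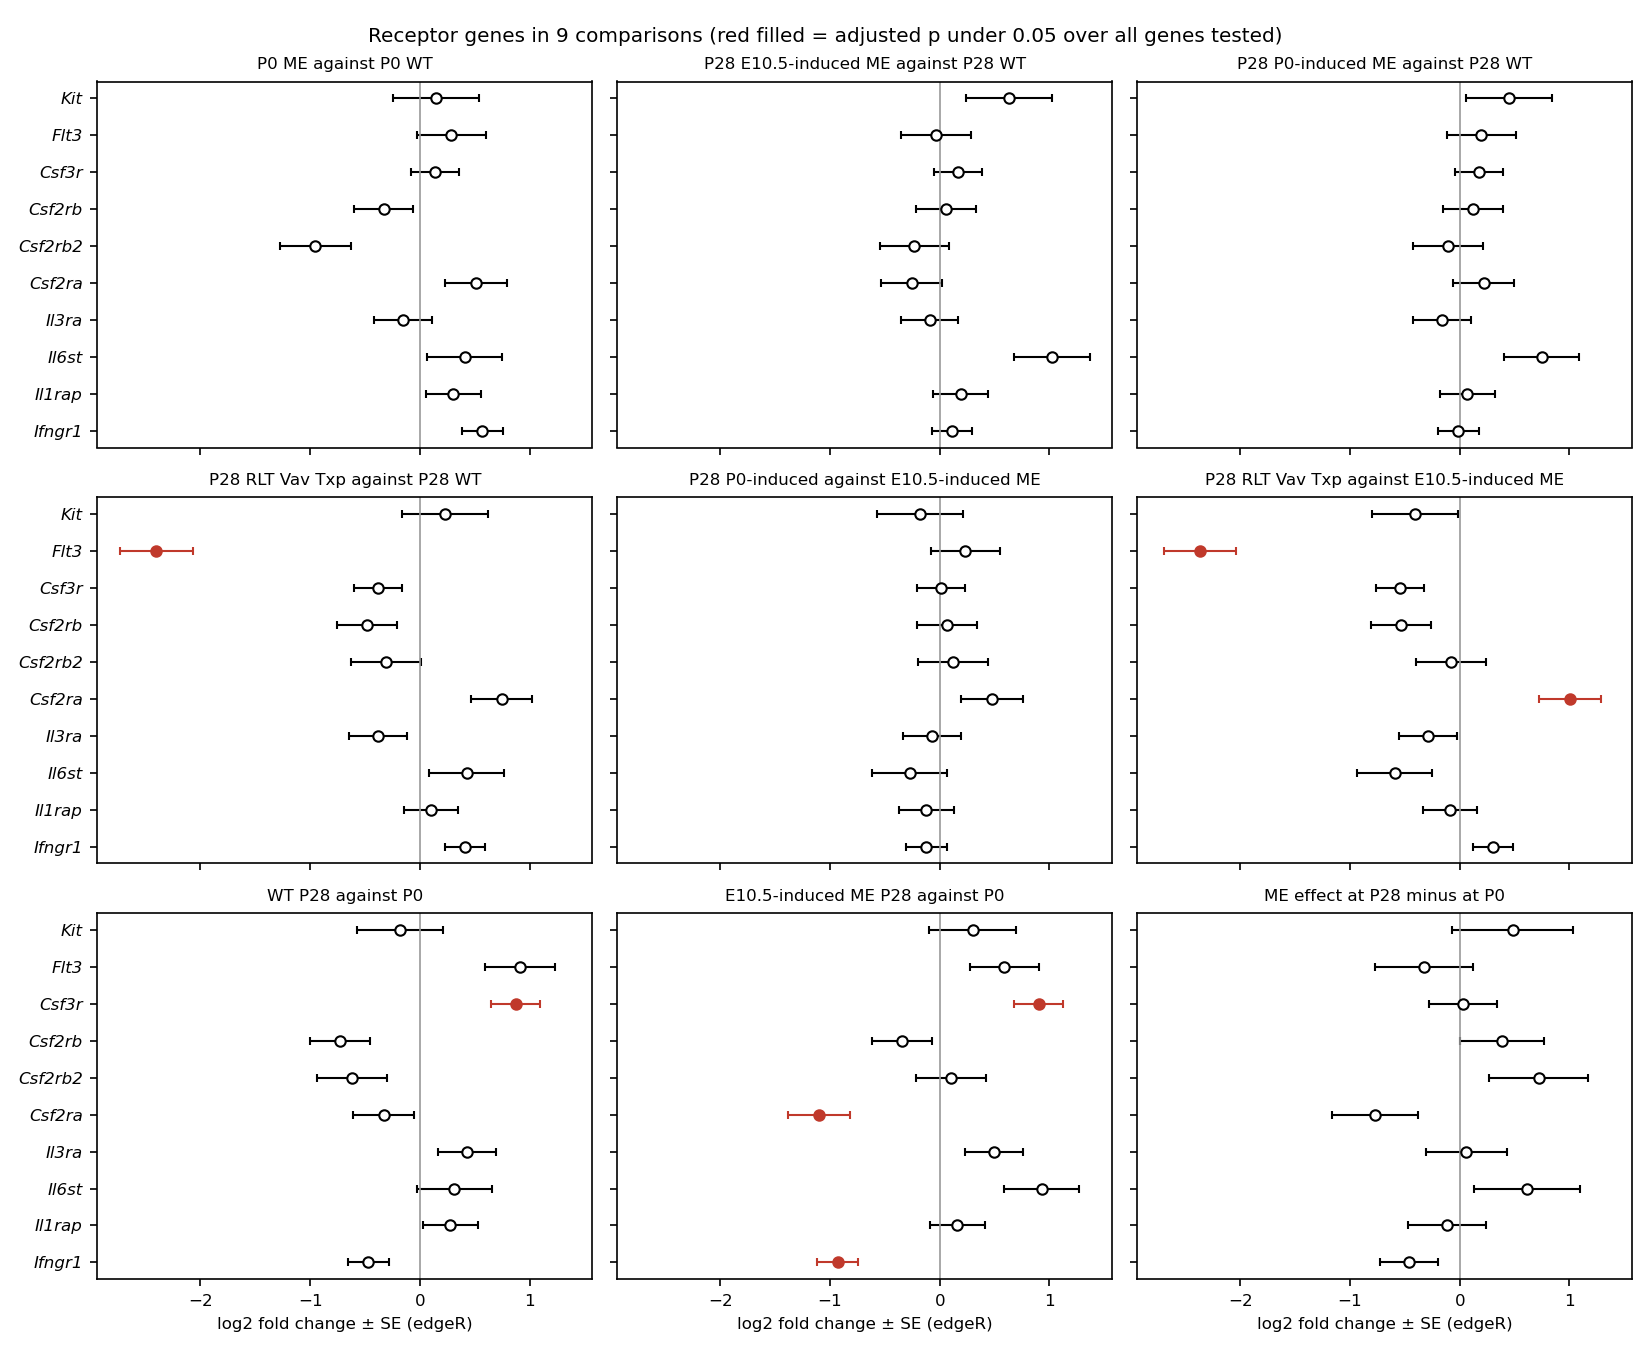
Log2 fold change (edgeR) ± SE (derived from the F statistic) of the 10 receptor genes, 1 panel for each of the 9 comparisons. Red filled points mark an adjusted p under 0.05. The 7 red points are Flt3 and Csf2ra in the RLT Vav Txp panels and Csf3r, Csf2ra and Ifngr1 in the panels of P28 against P0.

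Kit, the stem cell factor receptor and part of the gate by which the cells were sorted, passed the test in 0 of the 9 comparisons with edgeR on all 24 libraries. In P28 WT it measured 726, 586, 690.1 and 748 CPM. In E10.5-induced ME it measured 1116, 1015, 1241 and 889 CPM, and in P0-induced ME 1046, 998, 916 and 794 CPM. All 8 ME libraries lay above all 4 WT libraries. Of all genes tested, 28.2% did not overlap WT in E10.5-induced ME and 24.8% in P0-induced ME. The log2 fold change of Kit against WT was 0.63 (SE 0.39, with adjusted p = 0.32 in edgeR) for E10.5-induced ME and 0.45 (SE 0.39, with adjusted p = 0.566 in edgeR) for P0-induced ME. With only the groups compared in the fit, which leaves out the P0 libraries and the other P28 groups, edgeR called both, with adjusted p = 0.00075 and 0.0067. Those fits called 6096 and 5025 of all 23059 genes, against 2827 and 362 with all 24 libraries. In either comparison 1 of 16 alternative fits called Kit. The RLT Vav Txp libraries measured 895, 871, 619 and 834 CPM and overlapped WT. At P0 the spread was much wider, with 1451, 616, 885 and 169 CPM in WT and 1360.0, 453, 1152 and 499 CPM in ME. In both P0 groups library 1 was highest. The WT library 1 also held 11218 CPM of summed mast cell and basophil markers, cells that express KIT. The other P0 WT libraries held 961 to 2149 CPM. P0 ME library 1 held 50.6 CPM of these markers, and the other P0 ME libraries held 222 to 864 CPM. The part of these cells in the Kit level was not tested.

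Flt3, the receptor tyrosine kinase of multipotent and lymphoid-biased progenitors, had the largest difference of any member. In P28 WT it measured 1260.4, 1168, 1142 and 1129 CPM. In the RLT Vav Txp group it measured 414, 161, 89.7 and 225 CPM. The highest of these lay far below the lowest WT library. Its log2 fold change was -2.40 (SE 0.33, with adjusted p = 7.23e-05 in edgeR), a 5.28-fold lower level. Flt3 was 1 of 3 members whose libraries did not overlap in this comparison, as was true of 11.5% of all genes tested. Against E10.5-induced ME, with 1212, 1000.1, 1261 and 1117 CPM, the log2 fold change was -2.37 (SE 0.33, with adjusted p = 5.15e-05 in edgeR). The RLT Vav Txp libraries differed from each other more than those of any other P28 group, with a coefficient of variation of 62.5% for Flt3, and leaving out library 1 moved the difference from WT to -2.89.

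No difference in Flt3 among the other P28 groups passed the test. P0-induced ME measured 1488, 1186, 1358 and 1361 CPM, and its log2 fold change against WT was 0.20 (SE 0.32, with adjusted p = 0.782 in edgeR). The value for E10.5-induced ME against WT was -0.03 (SE 0.32, with adjusted p = 0.966 in edgeR). At P0, Flt3 measured 929, 493, 564 and 514 CPM in WT and 1278, 443, 706 and 625 CPM in ME. Library 1 was highest in both P0 groups, and it was the library with few neutrophil, macrophage and erythroid transcripts. All P28 WT libraries lay above all P0 WT libraries, with a log2 fold change of 0.91 (SE 0.32, with adjusted p = 0.0818 in edgeR). Without both P0 libraries numbered 1 the edgeR value was 1.17 (adjusted p = 0.00996), and DESeq2 also called the difference, with adjusted p = 0.03. In ME the value for P28 against P0 was 0.59 (SE 0.32, with adjusted p = 0.204 in edgeR), and 0.96 (adjusted p = 0.0211) by edgeR without those libraries.

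Markers of other cells also differed in the RLT Vav Txp group. Of 12 macrophage markers, 11 were higher than in P28 WT and 12 higher than in E10.5-induced ME by the edgeR test. Their summed level was 1825 to 6956 CPM in RLT Vav Txp, 558 to 726 CPM in P28 WT and 287 to 386 CPM in E10.5-induced ME, and Vsig4 was at 0 in every library of the last 2 groups. The RLT Vav Txp library with the lowest macrophage sum, library 2 with 1825 CPM, had 161 CPM of Flt3, and the library with the highest Flt3, library 1, had 6253 CPM of these markers. Against P28 WT edgeR also called higher 3 of 7 megakaryocyte, 1 of 8 erythroid and 1 of 10 mast cell and basophil markers. It called 0 of 11 neutrophil granule markers and 0 of 9 B and T lymphoid markers tested. The lymphoid sums were 358, 99.3, 77.3 and 61.6 CPM in RLT Vav Txp libraries 1 to 4 and 229 to 316 CPM in P28 WT. Of the 8 LSK markers other than Kit and Flt3, 3 were lower and 1 higher against P28 WT. Kit, in the same libraries, had a log2 fold change against P28 WT of 0.23. The part of other cells in the Flt3 difference was not tested.

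**Figure D4:**
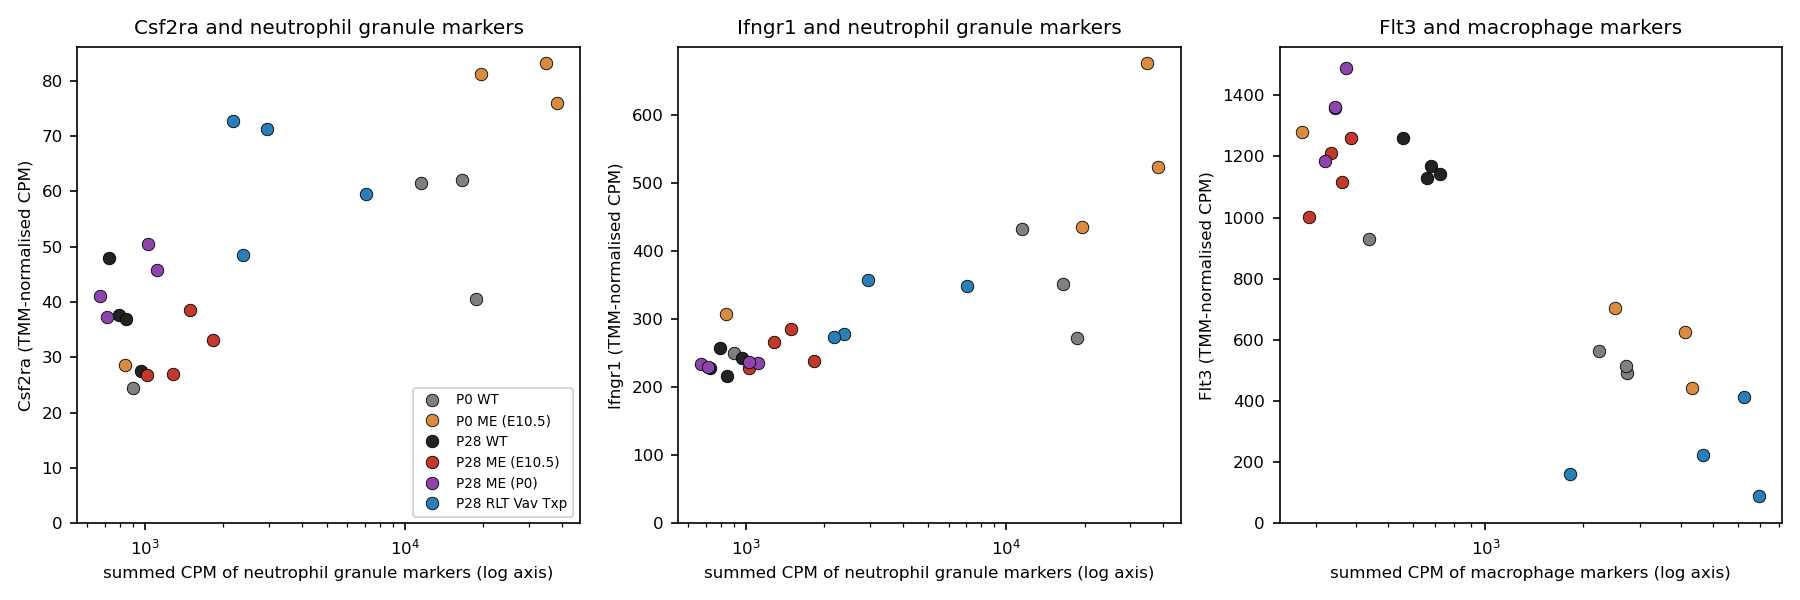
Levels of Csf2ra, Ifngr1 and Flt3 (linear axis, CPM) in the 24 libraries against summed CPM of neutrophil granule markers or macrophage markers (log axis), coloured by group. The P0 ME libraries with 19606 to 38300 CPM of neutrophil granule markers have the highest Csf2ra and Ifngr1, and the RLT Vav Txp libraries combine high macrophage sums with low Flt3.

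Csf3r, the receptor gene for G-CSF, the main growth factor of neutrophils, was the member called in both comparisons of age. It measured 90.3, 75.8, 83.5 and 34.7 CPM in P0 WT and 136, 104, 139 and 141 CPM in P28 WT. The groups did not overlap, and the log2 fold change of P28 against P0 was 0.87 (SE 0.22, with adjusted p = 0.0144 in edgeR). In ME it measured 61.3, 88.5, 97.8 and 64.9 CPM at P0 and 148, 128, 179 and 128 CPM at P28, again without overlap, with a log2 fold change of 0.90 (SE 0.22, with adjusted p = 0.00579 in edgeR). Nonoverlap held for 3 members in WT and 4 in ME, beside 9.27% and 25.4% of all genes tested. Without both P0 libraries numbered 1 the edgeR values were 1.01 (adjusted p = 0.00449) in WT and 0.80 (adjusted p = 0.0142) in ME. The WT call was lost when only the 2 WT groups were fitted, with an edgeR adjusted p = 0.137. Neutrophil granule markers ran the other way: of 11, edgeR called 8 lower in WT and 10 lower in ME at P28.

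Among the P28 groups no edgeR difference in Csf3r passed the threshold. P0-induced ME measured 156, 145, 143 and 145 CPM, all above the 4 WT libraries by a small margin, with a log2 fold change of 0.18 (SE 0.22, with adjusted p = 0.705 in edgeR). The RLT Vav Txp libraries measured 108, 89.8, 76.7 and 125 CPM and lay below all E10.5-induced ME libraries. That difference had a log2 fold change of -0.55 (SE 0.22, with adjusted p = 0.0846 in edgeR), past the threshold only with limma voom, at adjusted p = 0.000761.

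Csf2ra, the alpha chain that binds GM-CSF, was lower at P28 than at P0 in ME and higher in RLT Vav Txp than in E10.5-induced ME. At P0 it measured 28.6, 83.2, 81.3 and 76.0 CPM in ME. At P28 it measured 27.1, 26.8, 38.7 and 33.1 CPM in E10.5-induced ME. Of the P0 libraries, 3 lay well above all P28 libraries and library 1 lay among them. This was a log2 fold change of -1.10 (SE 0.28, with adjusted p = 0.00809 in edgeR), and -1.35 (adjusted p = 3.85e-05) by edgeR without both P0 libraries numbered 1. P0 WT measured 24.4, 62.0, 61.5 and 40.5 CPM and P28 WT 37.7, 27.5, 48.0 and 37.0 CPM, and these overlapped, with a log2 fold change of -0.33 (SE 0.28, with adjusted p = 0.549 in edgeR). In both P0 groups library 1, with the fewest neutrophil granule transcripts, had the lowest Csf2ra. The part of other cells in this difference was not tested.

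In the RLT Vav Txp group Csf2ra measured 71.3, 48.4, 72.7 and 59.5 CPM. All 4 libraries lay above all libraries of P28 WT and of E10.5-induced ME. The log2 fold change was 1.00 (SE 0.28, with adjusted p = 0.0157 in edgeR) against E10.5-induced ME and 0.75 (SE 0.28, with adjusted p = 0.159 in edgeR) against WT. Nonoverlap against E10.5-induced ME held for 4 of 10 members, beside 25.7% of all genes tested. Leaving out E10.5-induced ME library 1 or 2 ended the edgeR call, with adjusted p = 0.0523 and 0.0528. P0-induced ME measured 45.8, 50.6, 41.0 and 37.3 CPM, between the 2 groups, with a log2 fold change against E10.5-induced ME of 0.48 (SE 0.28, with adjusted p = 1 in edgeR). That difference passed the threshold with limma voom, at adjusted p = 0.0468, and in edgeR with only those 2 groups fitted, at adjusted p = 0.0289. Summed macrophage markers were 6253, 1825, 6956 and 4670 CPM in RLT Vav Txp libraries 1 to 4. In E10.5-induced ME they were 287 to 386 CPM, and edgeR called 12 of 12 macrophage markers higher in RLT Vav Txp. The part of other cells in the Csf2ra difference between these groups was not tested.

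Ifngr1, the ligand-binding chain of the interferon gamma receptor, was lower at P28 in ME, where Csf2ra was lower too. It measured 307, 676, 436 and 523 CPM in P0 ME and 266, 228, 285 and 239 CPM in E10.5-induced ME at P28. The groups did not overlap, although P0 ME library 1 came close. Its log2 fold change was -0.93 (SE 0.19, with adjusted p = 0.00121 in edgeR), and edgeR gave -1.10 (adjusted p = 2.72e-05) without both P0 libraries numbered 1. In WT it measured 250.1, 352, 432 and 273 CPM at P0 and 258, 242, 228 and 216 CPM at P28, with a log2 fold change of -0.47 (SE 0.19, with adjusted p = 0.127 in edgeR). ME against WT at P0 gave a log2 fold change of 0.57 (SE 0.19, with adjusted p = 0.153 in edgeR), and 0.74 (adjusted p = 0.0451) by edgeR without P0 ME library 1. RLT Vav Txp libraries measured 357, 278, 274 and 348 CPM, all above P28 WT, but the log2 fold change of 0.41 (SE 0.19, with adjusted p = 0.273 in edgeR) did not pass the threshold. P0-induced ME had the smallest spread of the 6 groups, with 235, 237, 234 and 229 CPM.

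Promoters of 3 members with called differences are shown as the 250 bases before the RefSeq start on GRCm38.p6, which had an entry for 9 of the 10 genes. Flt3 is shown for its fall in RLT Vav Txp, at chr5:147400490-147400739 on the minus strand, and Csf2ra, at chr19:61228419-61228668 on the minus strand, and Ifngr1, at chr10:19591699-19591948 on the plus strand, because they were called lower together at P28 in ME. Capitals mark GAGGAA, a core letter string of ETS and PU.1-type sites, on either strand.
Flt3: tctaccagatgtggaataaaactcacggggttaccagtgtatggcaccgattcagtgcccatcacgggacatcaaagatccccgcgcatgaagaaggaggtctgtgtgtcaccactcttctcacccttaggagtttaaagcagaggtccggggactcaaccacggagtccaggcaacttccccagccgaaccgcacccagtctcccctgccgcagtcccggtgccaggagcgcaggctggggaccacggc
Csf2ra: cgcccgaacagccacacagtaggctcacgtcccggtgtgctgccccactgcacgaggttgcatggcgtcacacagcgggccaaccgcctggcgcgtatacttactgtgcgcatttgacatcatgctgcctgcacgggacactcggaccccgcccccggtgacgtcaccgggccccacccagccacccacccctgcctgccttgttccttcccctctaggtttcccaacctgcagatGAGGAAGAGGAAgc
Ifngr1: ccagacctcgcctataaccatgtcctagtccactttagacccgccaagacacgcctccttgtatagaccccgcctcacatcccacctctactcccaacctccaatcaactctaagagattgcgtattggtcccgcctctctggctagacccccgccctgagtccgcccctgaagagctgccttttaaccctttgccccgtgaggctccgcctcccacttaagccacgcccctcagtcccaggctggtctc
The search found GAGGAA in Csf2ra, with its first base at -14 and at -8 from the start, and not in this window of Flt3 or Ifngr1. Among the 9 member promoters, 4 held it (Kit, Csf3r, Csf2rb2 and Csf2ra), beside 23.3% of 32851 promoters of the same length. The STAT string TTCNNNGAA was in 1 of 9 (Csf2rb2), beside 7.02% of all promoters. The MEIS string TGACAG was in 0 of 9, beside 15.9%, and the CEBP-type string TTNNGNAA was in 2 of 9 (Csf2ra and Il3ra), beside 36.8%. Both strands were searched. These are matches of letters, not sites, and no match says only that these letters are not in this window.

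Csf2rb, the shared beta chain, measured 128, 101, 109 and 89.2 CPM in P0 WT and 38.2, 61.4, 88.1 and 69.6 CPM in P28 WT. All P0 libraries lay above all P28 libraries, by a narrow margin. This was a log2 fold change of -0.73 (SE 0.27, with adjusted p = 0.107 in edgeR). P0 ME measured 77.2, 68.3, 122 and 71.5 CPM, of which only library 3 reached the level of P0 WT. Among P28 groups the ranges were 48.7 to 97.0 CPM in E10.5-induced ME, 57.6 to 80.1 CPM in P0-induced ME and 23.5 to 65.5 CPM in RLT Vav Txp, and all overlapped WT. RLT Vav Txp against E10.5-induced ME gave -0.53 (SE 0.27, with adjusted p = 0.184 in edgeR), and limma voom gave an adjusted p = 0.0452.

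Csf2rb2, the IL-3-specific beta chain, had the largest negative log2 fold change of the members for ME against WT at P0. P0 WT measured 46.6, 25.0, 24.0 and 29.5 CPM and P0 ME 26.1, 8.02, 22.4 and 8.09 CPM. ME libraries 2 and 4 lay far below every WT library, and ME libraries 1 and 3 were near or inside the WT range. The log2 fold change was -0.95 (SE 0.32, with adjusted p = 0.169 in edgeR), not a call. Summed mast cell and basophil markers were 961 to 11218 CPM in P0 WT and 50.6 to 864 CPM in P0 ME, without overlap. By edgeR 0 of these 10 markers were called for ME against WT at P0. As a share of the counts of both beta chain genes, Csf2rb2 made up 22.4% ± 4.10 in P0 WT and 15.4% ± 7.05 in P0 ME (SD, n = 4), with 10.2% and 10.51% in ME libraries 4 and 2. The P28 shares were 24.7% ± 3.56 for WT, 27.5% ± 5.31 for RLT Vav Txp, 20.7% ± 0.833 for E10.5-induced ME and 21.4% ± 1.32 for P0-induced ME. P0 WT library 1, the highest for both genes, was the library with the most mast cell and basophil transcripts, cells that also use the IL-3 receptor. In P0 ME libraries 1 to 4 these markers summed to 50.6, 274, 864 and 222 CPM. There library 1, the highest for Csf2rb2, held the fewest. The part of these cells in these levels was not tested.

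Il3ra, the IL-3 alpha chain, was low and even. Group means ran from 11.8 ± 3.64 CPM in P0 ME to 17.8 ± 6.66 CPM in P28 WT (SD, n = 4), and no comparison was called. The wide P28 WT group came from library 3, in 14.2, 12.8, 27.5 and 16.7 CPM. E10.5-induced ME at P28, with 16.1, 15.5, 17.7 and 17.4 CPM, lay above all P0 ME libraries, with 15.3, 14.2, 10.6 and 7.31 CPM, and the log2 fold change was 0.49 (SE 0.26, with adjusted p = 0.199 in edgeR).

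Il6st, which codes for gp130, the shared signalling chain of the IL-6 family, was the member nearest to a call for ME at P28. P28 WT measured 26.4, 28.9, 32.9 and 41.0 CPM. E10.5-induced ME measured 67.7, 67.7, 73.1 and 53.7 CPM, and P0-induced ME measured 51.2, 46.8, 68.0 and 51.0 CPM. All 8 ME libraries lay above all 4 WT libraries. Its log2 fold change was 1.02 (SE 0.34, with adjusted p = 0.0517 in edgeR) for E10.5-induced ME, a 2.03-fold higher level just short of the threshold, and 0.75 (SE 0.34, with adjusted p = 0.218 in edgeR) for P0-induced ME. For E10.5-induced ME, DESeq2 gave an adjusted p = 0.0385, limma voom 0.000327, and edgeR on only the 2 groups 0.000242. In all, 4 of 16 alternative fits called it, and the highest adjusted p was 0.163, by edgeR without P28 WT library 1. For P0-induced ME, limma voom gave an adjusted p = 0.0102 and edgeR on only the 2 groups 0.00349, while DESeq2 gave 0.182. There 2 of 16 alternative fits called it. Nonoverlap held for 2 of 10 members in E10.5-induced ME, beside 28.2% of all genes, and for 3 of 10 in P0-induced ME, beside 24.8%.

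Mean levels of Il6st in the other groups lay below both of these ME groups. RLT Vav Txp measured 46.9, 46.4, 40.4 and 40.1 CPM, below all E10.5-induced ME libraries and above the 3 lower WT libraries, with 2 of them below the highest WT library. Its log2 fold changes were -0.59 (SE 0.34, with adjusted p = 0.247 in edgeR) against E10.5-induced ME and 0.43 (SE 0.34, with adjusted p = 0.65 in edgeR) against WT. At P0 it measured 38.2, 21.2, 37.0 and 7.38 CPM in WT and 50.3, 27.5, 44.9 and 15.1 CPM in ME, with library 4 lowest in both. All P28 libraries of E10.5-induced ME lay above all P0 ME libraries, with a log2 fold change of 0.93 (SE 0.34, with adjusted p = 0.0603 in edgeR). Without both P0 libraries numbered 1 the edgeR value was 1.17 (adjusted p = 0.0203).

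Il1rap, the co-receptor for IL-1 and IL-33, varied least between groups. Its means ran from 17.9 ± 6.19 CPM in P0 WT to 24.7 ± 2.97 CPM in E10.5-induced ME at P28 (SD, n = 4). Its log2 fold changes over the 9 comparisons stayed between -0.12 and 0.31, each with overlapping libraries where groups were compared directly. The lowest single value was 9.20 CPM in P0 WT library 4, the library with the lowest Kit, Csf3r and Il6st as well.

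Several members varied together from library to library. Over the 24 libraries, log2 CPM of Kit and Il6st had a Pearson r of 0.86, and 0.90 after the group means were taken out. Kit and Il1rap had an r of 0.78, Csf3r and Il6st 0.75 and Csf2ra and Ifngr1 0.72, while Flt3 and Csf2ra had an r of -0.59. These are descriptions of libraries that share depth, sort and cell composition, and the P0 libraries weigh heavily in them. The 3 genes most like each member were sought among 9679 others whose mean log2 CPM was 3 or more. For Flt3 these were Elk3 (r = 0.94), Satb1 (r = 0.94) and Jakmip1 (r = 0.90), and for Il6st they were Specc1l (r = 0.97), Rbl2 (r = 0.95) and Arap1 (r = 0.95). Kit was most like Itgb1 (r = 0.94), Pnpla7 and Wdr81, and Csf3r most like Sh2d5 (r = 0.92), Sdha and Plppr3. For Ifngr1 they were Vsir (r = 0.91), Rogdi and the neutrophil granule gene Mpo (r = 0.88), and for Csf2ra they were Grina (r = 0.90), Slc7a7 and Stom. Csf2rb was most like Fscn1 (r = 0.81), Igf1r and Tmem131, Csf2rb2 most like Lrp12 (r = 0.81), St6galnac3 and Alg14, Il3ra most like Usp40 (r = 0.81), Abitram and Rbfa, and Il1rap most like Sel1l (r = 0.85), Pdxdc1 and Washc2.

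Genes of cytokine signalling in general were read from lists, each beside the share of all genes called. The lists were chosen with earlier results of these data known. Of 26 signal transducers (JAK, STAT, RAS and PI3K pathway genes and IL-1 adaptors), 12 rose and 0 fell in E10.5-induced ME against P28 WT, where 7.82% of all genes tested rose. The list had a median log2 fold change of 0.63 beside -0.10 over all genes tested. Stat3, the main STAT factor of gp130 and the G-CSF receptor, had a log2 fold change of 0.92 (SE 0.19, with adjusted p = 0.00454 in edgeR), and Stat5b, a STAT factor of the beta chain receptors, 0.88 (SE 0.27, with adjusted p = 0.0343 in edgeR). Sos1, a RAS exchange factor, rose by 1.00 and Pik3cd, a PI3K catalytic subunit, by 0.95 on the log2 scale. Stat2 at 0.85 and the IL-1 pathway adaptor Traf6 at 0.83 also rose. With plain library totals only 2 of the 26 passed the edgeR test, against a median of 0.50, and without P28 WT library 2 also 2. Without P28 WT library 1 or E10.5-induced ME library 3 it was 4 each, and without E10.5-induced ME library 1 it was 7. Limma voom called 19 and edgeR on only these 2 groups 20, all higher. In P0-induced ME 1 of 26 rose, Stat3 with 0.91 (SE 0.19, with adjusted p = 0.0308 in edgeR), and the list's median was 0.56 beside -0.09 over all genes.

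The same list ran the other way in RLT Vav Txp against E10.5-induced ME, where 9 fell and 0 rose, beside 9.38% of all genes that fell, with a median of -0.45 beside 0.12 over all genes. Jak3 had a log2 fold change of -1.17 (SE 0.21, with adjusted p = 0.00057 in edgeR), and Pik3r1, the PI3K regulatory subunit, -0.88. Against P28 WT the list's median in RLT Vav Txp was 0.16 beside 0.01 over all genes. E10.5-induced ME is in both comparisons that gave many calls. Without RLT Vav Txp library 1, 14 fell, and without its library 3, 6 fell. The count was 7 with plain library totals. It was also 7 without RLT Vav Txp library 2 or 4 or E10.5-induced ME library 1, 2 or 3. From P0 to P28, 10 rose and 1 fell in ME, beside 9.79% and 8.45% of all genes, led by Jak3 with 1.20 (SE 0.21, with adjusted p = 0.000362 in edgeR) and Stat5a with 1.05 (SE 0.19, with adjusted p = 0.00056 in edgeR), while in WT 2 rose, beside 3.12%, Irak2 with 0.84 and Jak1 with 0.64. In ME the 10 became 5 without P0 ME library 4 and 6 without P0 ME library 2 or E10.5-induced ME library 3.

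Inhibitors of these signals were a list of 20. In E10.5-induced ME against WT 7 rose and 0 fell, beside 7.82% of all genes that rose, with a median of 0.36 beside -0.10 over all genes. Dusp6, an ERK phosphatase, had a log2 fold change of 1.12 (SE 0.16, with adjusted p = 0.000311 in edgeR), Inpp5d, which codes for the phosphatase SHIP1, 1.06 (SE 0.28, with adjusted p = 0.0135 in edgeR), and the ubiquitin ligase genes Cbl and Cblb 0.78 and 0.65. With plain library totals 2 of the 20 passed the edgeR test, and without single libraries the count was 1 to 8, with 1 without P28 WT library 2, 2 without P28 WT library 1 and 4 without E10.5-induced ME library 1 or 3. In RLT Vav Txp against E10.5-induced ME 7 fell and 0 rose, beside 9.38% of all genes that fell, among them Socs5 with -1.11, Sh2b3 with -1.08 and Inpp5d with -1.08. Against P28 WT 1 rose in RLT Vav Txp, beside 2.64% of all genes, Dusp6 with 0.68 (SE 0.16, with adjusted p = 0.0102 in edgeR). The ME effect on Dusp6 differed between P28 and P0, with 1.60 (SE 0.22, with adjusted p = 0.00141 in edgeR). From P0 to P28, 7 rose and 0 fell in ME, beside 9.79% of all genes that rose. In WT 1 rose and 1 fell, beside 3.12% and 4.56%, the latter again Dusp6 with -0.97 (SE 0.16, with adjusted p = 0.000351 in edgeR). At P0, 1 of 20 fell in ME, Socs2, where 0.642% of all genes were called.

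Receptors outside the 10 members were called in both directions. Of 40, 2 rose and 1 fell in E10.5-induced ME against WT, or 7.5% of the list beside 12.3% of all genes: Il9r and the TGF-beta receptor gene Tgfbr1 with 1.09 (SE 0.27, with adjusted p = 0.0116 in edgeR) rose, and Il11ra1, the IL-11 alpha chain that pairs with gp130, fell with -0.97 (SE 0.20, with adjusted p = 0.00478 in edgeR). In RLT Vav Txp against WT 6 rose and 2 fell, beside 2.64% and 1.48% of all genes tested. Csf1r, the macrophage growth factor receptor gene and also a macrophage marker, had 4.02 (SE 0.55, with adjusted p = 0.000142 in edgeR), Epor, the erythropoietin receptor gene, 2.33 (SE 0.51, with adjusted p = 0.00632 in edgeR) and Il1r1, the IL-1 receptor that pairs with IL1RAP, -1.38 (SE 0.29, with adjusted p = 0.00529 in edgeR). Against E10.5-induced ME 5 rose, beside 8.5% of all genes, and 4 fell, among the latter Lifr, a partner of gp130, with -2.26 (SE 0.57, with adjusted p = 0.00799 in edgeR). From P0 to P28, 6 rose and 7 fell in WT, beside 3.12% and 4.56% of all genes, and 8 rose and 5 fell in ME, beside 9.79% and 8.45%. In ME the 8 became 4 with RLE scaling or plain library totals. They became 3 without P0 ME library 3 or E10.5-induced ME library 1 or 2, 4 without P0 ME library 2 or E10.5-induced ME library 3, and 5 without P0 ME library 4. The decoy IL-1 receptor Il1r2 fell in both, with log2 fold changes of -3.09 in WT and -3.86 in ME, and so did Csf1r, with -3.78 and -3.51. Macrophage markers fell with them, 8 of 12 in WT and 11 of 12 in ME, and their part was not tested.

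Of 17 ligand genes, 9 had enough reads to test. Genes for G-CSF (Csf3), GM-CSF (Csf2), IL-3 and IL-6 were among those not tested. In RLT Vav Txp against E10.5-induced ME 3 rose, beside 8.5% of all genes, including Flt3l, the ligand of FLT3, with 1.24 (SE 0.40, with adjusted p = 0.0331 in edgeR). In ME from P0 to P28, 1 rose and 2 fell, beside 9.79% and 8.45%, the former Osm, a ligand of gp130 with LIFR or OSMR, with 1.80 (SE 0.29, with adjusted p = 0.000152 in edgeR). Of 20 genes that respond to cytokines, 3 rose and 0 fell in E10.5-induced ME against WT, or 15.0% of the list beside 12.3% of all genes called, among them Irf8 with 0.87 (SE 0.28, with adjusted p = 0.0435 in edgeR). In RLT Vav Txp against WT 5 rose and 0 fell, beside 2.64% of all genes that rose, with Fos at 2.62, Irf8 at 1.94 and Gbp3 at 0.79. The count was 3 without P28 WT library 1 or 2 or RLT Vav Txp library 3, and 11 of 12 macrophage markers rose in the same comparison, whose part was not tested. From P0 to P28, 8 rose and 6 fell in WT, beside 3.12% and 4.56% of all genes, and 9 rose and 4 fell in ME, beside 9.79% and 8.45%. In WT the 8 became 5 without P0 WT library 2 or P28 WT library 3 or 4. Among those called in both were Gbp2, an interferon gamma target, at 1.37 and 1.34, Fos, at -5.23 and -3.62, and Id1, at -3.25 and -3.02. Irf1, an interferon-responsive factor, rose by 1.62 and Myc by 1.61 in ME.

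**Figure D5:**
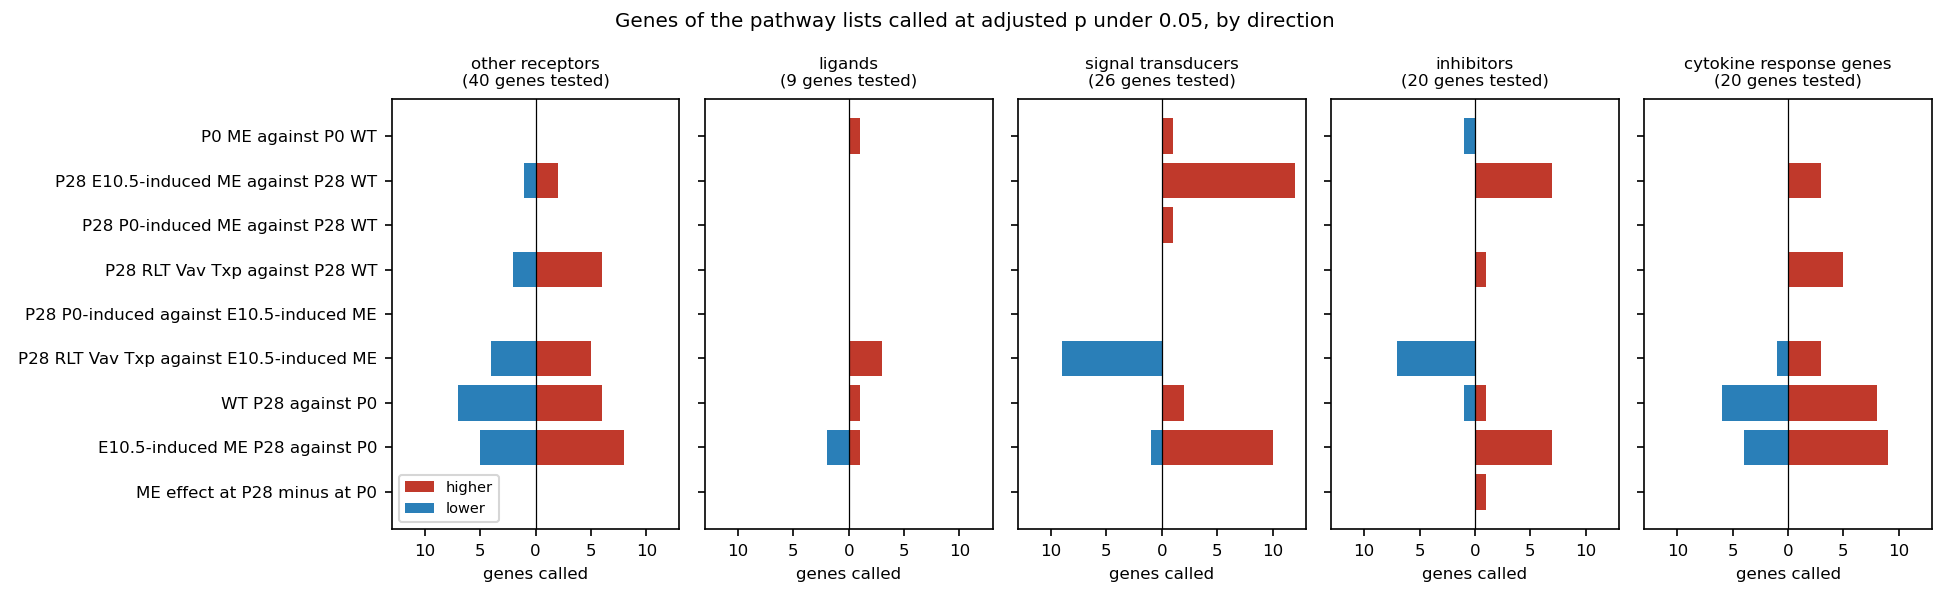
Number of genes called higher (red, right) or lower (blue, left) at an adjusted p under 0.05 in 5 lists of pathway genes, for each of the 9 comparisons. Signal transducers and inhibitors were called higher in E10.5-induced ME against P28 WT (12 and 7) and lower in RLT Vav Txp against E10.5-induced ME (9 and 7).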

How the data were processed

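Bulk RNA-seq was run on 24 libraries (6 groups of 4) of total RNA from sorted mouse progenitors, with kits from Qiagen (extraction) and Clontech (library), per the labels' protocols. The authors deposited 1 table of raw counts per gene. Per the submitters' processing notes the tools were STAR 2.7.9a, Subread and featureCounts 2.0.3, with GRCm38. Strand and multi-match settings are not given in the sources used here.

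Of 55774 entries, 287 repeats of 168 IDs were dropped, leaving 55487. Genes passed edgeR's filter with a count minimum of 10. The test was edgeR 4.0.16's robust quasi-likelihood F-test with TMM scaling, 1 mean per group over all 24 libraries and 18 residual degrees of freedom. P-values were adjusted by the Benjamini-Hochberg method over 23059 genes, and a call is an adjusted p under 0.05. Log2 CPM values use a prior count of 2, and fold changes use the default of edgeR's fit. Each SE was derived as the absolute log2 fold change divided by the square root of the test's F statistic. R was 4.3.3 and Python 3.11.15, with Biopython 1.88. The pipeline was tested on simulated data.

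Totals of 31233688 to 89774511 counts per library make counting error small beside the spread among replicates. Replicates of 1 group always differed by more than sampling noise. Alternatives were RLE scaling, plain library totals, DESeq2 1.42.0, limma 3.58.1 voom with quality weights, no filter, only the groups compared, the replicate block on the 20 libraries whose titles carry a replicate number, leaving out both P0 libraries numbered 1, and leaving out each library. The text names all 10 receptor genes, and of each pathway list at most 6 called genes per comparison, those of largest absolute fold change with a mean log2 CPM of 1 or more. The receptor genes and lists were chosen with earlier results of these data known. Coordinates and coding sequences are from GENCODE M21 and promoters from RefSeq, both on GRCm38.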

Additional observations from a re-analysis of the deposited data

Results flagged for a closer look

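In 5 of the 60 sets formed by 1 receptor gene in 1 group of 4 libraries, a single library stood far from the other 3, with a gap to its nearest neighbour above Dixon's critical share of the group's range. Chance gives about 1 such set in 20. In P0 WT, Flt3 was 929 CPM in library 1 and 493 to 564 CPM in the others. In P28 WT, Csf3r was 104 CPM in library 2 and 136 to 141 CPM in the others. In P0-induced ME, Csf3r was 156 CPM in library 1 and 143 to 145 CPM in the others, a small gap in a tight group. In P0 ME, Csf2rb was 122 CPM in library 3 and 68.3 to 77.2 CPM in the others. In the same group Csf2ra was 28.6 CPM in library 1 and 76.0 to 83.2 CPM in the others, and this library also had few neutrophil granule transcripts. The difference in the ME effect between P28 and P0 was called for 0 of the 10 genes by edgeR, by DESeq2 and by limma voom. By edgeR 0 had an unadjusted p under 0.05, beside 3815 of all 23059 genes tested.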

How the results depend on the processing

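The number of receptor genes called depended on the fit. For E10.5-induced ME against WT, 0 became 1 with DESeq2, 1 with limma voom and 2 with only the groups compared. For P0-induced ME against WT, 0 became 1 with limma voom and 2 with only the groups compared, and for P0-induced against E10.5-induced ME 1 with each. RLT Vav Txp against WT went from 1 to 2 with only the groups compared, and RLT Vav Txp against E10.5-induced ME from 2 to 5 with limma voom. For age in WT, 1 became 2 with DESeq2, 0 with only the groups compared and 3 without both P0 libraries numbered 1. For age in ME, 3 became 5 with limma voom and 5 without those 2 libraries. Leaving out single libraries gave 0 to 1 for P0 ME against WT (1 without P0 ME library 1) and 0 to 1 for E10.5-induced ME against WT (1 without P28 WT library 4). It gave 1 to 2 for RLT Vav Txp against E10.5-induced ME (1 without E10.5-induced ME library 1 or 2), 1 to 2 for age in WT (2 without P0 WT library 1) and 3 to 5 for age in ME (5 without P0 ME library 1). The cause of these changes was not tested.

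Of 48 single-gene differences of at least 0.3 on the log2 scale, 822 alternative values kept direction and call in 785, lost the call in 3, gained it in 33 and reversed in 1. The reversal was the difference in the ME effect on Flt3 between P28 and P0, -0.32 in all libraries and -0.57 to 0.0463 when single libraries were left out, the positive end without P0 ME library 1. Among 42 smaller differences 23 changed sign in some alternative, and 0 of the 42 passed the test in any.

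Genome-wide calls varied far more. Over the alternatives they ran from 6 to 804 against 148 as fitted for P0 ME against WT, from 911 to 6492 against 2827 as fitted for E10.5-induced ME, from 8 to 5025 against 362 as fitted for P0-induced ME and from 638 to 1644 against 950 as fitted for RLT Vav Txp against WT. They ran from 6 to 2326 against 11 as fitted for P0-induced against E10.5-induced ME, from 2119 to 8053 against 4122 as fitted for RLT Vav Txp against E10.5-induced ME, from 438 to 2842 against 1771 as fitted for age in WT, from 2742 to 5909 against 4206 as fitted for age in ME and from 14 to 1511 against 166 as fitted for the difference between ages. With plain library totals in place of TMM, the split of genes called higher and lower moved from 84 and 64 to 82 and 40 for P0 ME, 608 and 342 to 533 and 467 for RLT Vav Txp against WT, 1959 and 2163 to 2137 and 1794 for RLT Vav Txp against E10.5-induced ME, 114 and 248 to 76 and 452 for P0-induced ME, 719 and 1052 to 947 and 721 for age in WT, 2257 and 1949 to 1690 and 2122 for age in ME and 108 and 58 to 8 and 65 for the difference between ages. Counts in the pathway lists under the same alternatives were added after seeing the data. With plain library totals the calls fell from 5 to 3 for cytokine response genes in RLT Vav Txp against WT, and with only the groups compared from 13 to 6 for other receptors and from 14 to 8 for cytokine response genes in age in WT.

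Over all groups with numbered titles, replicate numbers gave no general pairing of the samples. Deviations from group means correlated above 0.1 in 14 of 40 same-numbered pairs (r from -0.394 to 0.660, median 0.0295), and the same number gave the best match in 12. Between P0 WT and P0 ME the 4 values of r were 0.660, 0.0531, 0.371 and 0.464, with the same number best in 3. In those 4 pairs Il6st, Ifngr1 and Csf2ra were above WT in ME in all 4 and Csf2rb2 and Il3ra below in all 4, none of them a call with the block. The block fits the same replicate effects in all 20 numbered libraries, so it does not test a pairing of the P0 groups alone. With the replicate block on 20 libraries, 3 receptor genes were called for age in WT (Csf3r, Flt3 at 0.96 and Csf2rb at -0.79) and 5 for age in ME, against 2 and 3 with no block on the same libraries. The block changed no other count of receptor calls. Counting error is small beside the spread between the P0 libraries, which limits what could be called there.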
